A study of Homo sapiens with 6 samples.

Results

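Neuronal and epithelial splicing regulators were measured as RNA in EndoC-βH1 cells, an insulin-producing line derived from human pancreas. They were the 10 genes ELAVL3, ELAVL4, NOVA1, NOVA2, RBFOX2, CELF3, CELF4, SRRM4, PTBP2 and ESRP1, chosen by name from the 26485 gene symbols of the count table. The libraries labelled sgZHX3-3 (3, genotype label ZHX3 KO) came from cells given lentiCRISPRv2, a lentiviral vector for Cas9, with a guide against the first coding exon of ZHX3, a zinc-finger and homeobox repressor of transcription. The libraries labelled Empty (3, genotype label WT) came from cells given that vector with no guide, so Cas9 and antibiotic selection were common to both groups. Cells were grown as stable lines, and a single guide was used. The titles call the libraries of a group biological replicates without saying whether these are separate lines or cultures, so SDs and p-values measure the spread between these libraries, which may be technical.

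These genes encode RNA-binding proteins that decide which exons enter a messenger RNA in particular tissues. ELAVL, NOVA, RBFOX, CELF and SRRM4 proteins and PTBP2 shape the exons of neurons, and ESRP1 those of epithelia. Pancreatic beta cells are epithelial cells that also use many neuronal genes for regulated secretion, so both kinds of regulator can be looked for in the same cell. Gene counts add up all isoforms of a gene. Exon choice itself was not analysed here.

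Total counts were between 45101454 and 61051884 a library. ZHX3 RNA was not reduced in the libraries with the genotype label ZHX3 KO. It was higher in the libraries labelled sgZHX3-3, at 177 ± 8.62 CPM (a gene's counts scaled to a common library size), against 105 ± 4.19 CPM in the libraries labelled Empty (SD, n = 3 each), so each direction below is drawn from the labels. The ZHX3 log2 fold change was 0.745 (edgeR adjusted p = 1.62e-05), and the protein was not analysed here. Of 16199 genes tested, 1151 were higher and 807 lower at an adjusted p below 0.05. Of these calls 58.8% were higher, and 41.5% with plain library totals as the scaling. Beta cell markers were present, with INS at 5770 to 7120 CPM in the libraries labelled sgZHX3-3, against 5210 to 6500 CPM in those labelled Empty. These INS ranges overlapped. Of 8 beta cell markers 7 were higher and 0 lower, with a median log2 fold change of 0.44. The count of higher markers was 8 without Empty library 1 and 3 without Empty library 2 or 3. It was 4 without any 1 of the libraries labelled sgZHX3-3. With Empty libraries 2 and 3 both left out the median was 0.247. Empty libraries 2 and 3 stood apart from Empty library 1, both over all tested genes and in stress genes. Between 2 libraries the mean chi-square per gene, which also grows with depth, was 3.63 for Empty 2 and 3. It was 23.3 and 22.3 for Empty 1 against Empty 2 and 3, and 18.9 for Empty 1 against sgZHX3-3 library 1. Among the libraries labelled sgZHX3-3 it was 4.56 for 1 and 2, and 21.4 and 12.9 for library 3 against these. The summed level of 8 heat shock and oxidative stress genes was 619, 643 and 574 CPM in sgZHX3-3 libraries 1 to 3, against 876, 1550 and 1740 CPM in Empty libraries 1 to 3. That list was added after results of these data were known. Its part in the results below was not tested.

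Promoter windows are shown for 3 of the regulators, the gene called by edgeR, a relative and a gene of another family. They run from 250 bases before the start of transcription to 50 bases from it, and come from RefSeq on GRCh38.p14. CELF4 was the regulator whose RNA passed the edgeR test, a call that several alternative settings below did not keep. CELF3 is its most abundant relative here. The ELAVL4 window was picked from 7 because it holds the CCAAT box in the forward sense more than once. Its contrast with the other windows shown follows from that choice. CCAAT is the site of the factor NF-Y, with which ZHX proteins are known to interact, and capitals mark it.
CELF4, chr18:37485743-37486042, minus strand: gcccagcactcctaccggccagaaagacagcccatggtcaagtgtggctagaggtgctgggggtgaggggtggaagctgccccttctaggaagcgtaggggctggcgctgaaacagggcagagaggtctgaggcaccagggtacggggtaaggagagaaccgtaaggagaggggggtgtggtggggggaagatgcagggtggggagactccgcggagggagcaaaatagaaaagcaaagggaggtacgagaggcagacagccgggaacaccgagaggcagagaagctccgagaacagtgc
CELF3, chr1:151716754-151717053, minus strand: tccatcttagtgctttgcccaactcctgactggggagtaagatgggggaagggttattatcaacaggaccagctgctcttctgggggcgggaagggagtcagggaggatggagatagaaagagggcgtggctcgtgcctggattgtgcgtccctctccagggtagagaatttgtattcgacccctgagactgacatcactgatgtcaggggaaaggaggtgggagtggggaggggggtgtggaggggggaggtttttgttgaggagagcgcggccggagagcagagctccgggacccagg
ELAVL4, chr1:50108670-50108969, plus strand: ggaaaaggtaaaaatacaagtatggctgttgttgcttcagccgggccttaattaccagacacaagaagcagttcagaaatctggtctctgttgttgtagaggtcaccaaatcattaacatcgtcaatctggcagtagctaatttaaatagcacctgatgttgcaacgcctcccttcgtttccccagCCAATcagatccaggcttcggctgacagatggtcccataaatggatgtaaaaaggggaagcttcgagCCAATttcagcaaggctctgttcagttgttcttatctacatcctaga
The windows of CELF4 and CELF3 hold no CCAAT on either strand, and that of ELAVL4 holds it at −64 and at 3 from the start. The CELF4 window lies inside the gene, whose outermost annotated start is at 37566037 on the minus strand. The sequence at that outer start of CELF4 was not searched. The ELAVL4 window shown also lies inside its gene, which is annotated from 50048014.

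Of the 10 regulators, 7 had 15 windows in all by symbol; ELAVL3, RBFOX2 and ESRP1 are named only. CCAAT, searched on both strands, stood in 7 of the 15 windows, belonging to ELAVL4 (4 of 7 windows), NOVA1 (2 of 3) and NOVA2. It stands in 34.6% of all 35116 windows of this length. TTCAGCACC and GGACAGCGC, exact letters from either end of the element bound by the neuronal gene repressor REST, stood in 0 of the 15 windows on either strand, against 0.376% and 0.581% of all windows. A match or its absence describes only these letters in these windows. The searched motifs do not overlap each other.

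The regulators fell into a high group and a low group, with NOVA2 below both and SRRM4 close to undetected. Levels are CPM divided by the length of all merged exons in GENCODE 29 in kilobases, which allows genes to be compared, although the authors may have counted on another annotation. CELF3, which binds GU-rich RNA and is mainly a brain protein, was the highest, at 64.5 ± 5.60 CPM per kb in the libraries labelled sgZHX3-3 and 58.4 ± 4.33 CPM per kb in those labelled Empty (SD, n = 3 each). This was above 96.1% of tested protein-coding genes or level with them. ESRP1, the epithelial regulator, came next, at 36.4 ± 3.29 and 37.6 ± 1.60 CPM per kb in the libraries labelled sgZHX3-3 and Empty (SD, n = 3 each). ELAVL3 (30.6 and 30.8 CPM per kb in sgZHX3-3 and Empty), CELF4 (24.9 and 20.1) and RBFOX2 (18.6 and 16.9) completed the high group. Over all 6 libraries ESRP1 reached down to 32.7 and ELAVL3 up to 33.1 CPM per kb, so this pair overlapped, as did CELF4 and RBFOX2, which met at 18.8. The lowest CELF3 value was 55.3.

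The low group held PTBP2, ELAVL4 and NOVA1, none above 2.82 CPM per kb in any library, while no library of the high group was below 16.0. PTBP2 lay between 2.29 and 2.82 CPM per kb, ELAVL4 between 1.90 and 2.42, and NOVA1 between 1.98 and 2.20, so the order of these 3 was not resolved. NOVA2 followed at 0.377 to 0.480 CPM per kb. SRRM4 lay at 0.0177 to 0.0453 CPM per kb, above only 0.387% of tested protein-coding genes. With the longest transcript as the length, CELF4 came before ELAVL3, and PTBP2 after NOVA1; CELF3 and ESRP1 stayed at the top, and NOVA2 and SRRM4 at the bottom.

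**Figure D1:**
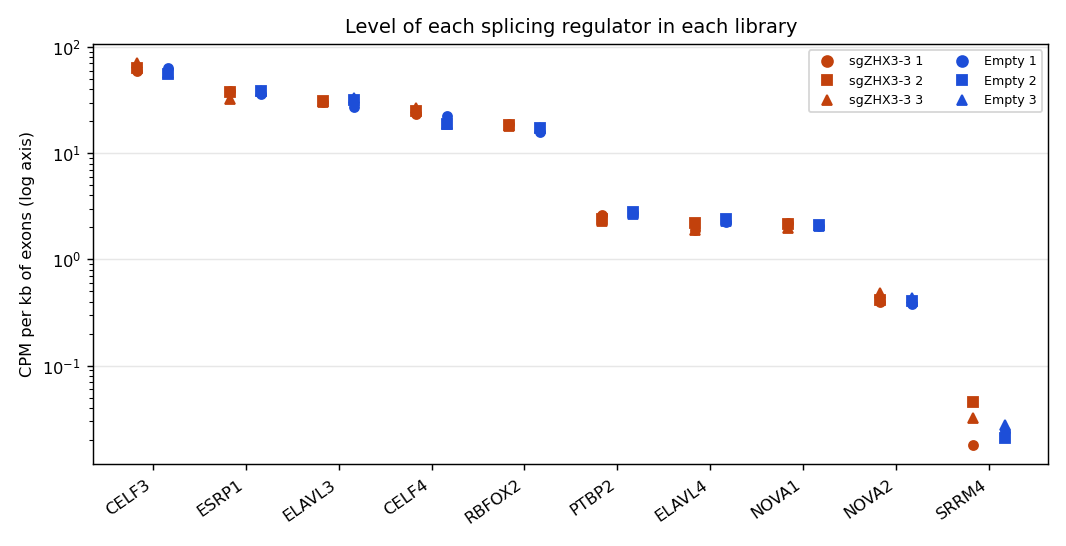
CPM per kb of merged exons (log axis) of each of the 10 splicing regulators, ordered by mean level, with a symbol for each library, sgZHX3-3 left and Empty right. CELF3 lies at 55.3 to 70.6 CPM per kb, and SRRM4 at 0.0177 to 0.0453.

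Between the groups most of these regulators differed little. Of the 10, all tested, 1 passed as higher (CELF4) and 0 as lower by edgeR at an adjusted p below 0.05, against 7.11% higher and 4.98% lower among all tested genes and 12.1% called in either direction. At an unadjusted p below 0.05, 2 of the 10 were higher and 2 lower, against 2353 higher and 2207 lower of all 16199, and DESeq2 also called 1 higher and 0 lower. The median log2 fold change was 0.06, against −0.0020 over all tested genes. The groups did not overlap for 4 of the 10, against 32% of all tested genes, so both shares are near the background.

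CELF4 was the regulator called higher. CELF proteins bind GU-rich stretches of introns and untranslated regions; CELF4 is mostly neuronal. It had 153, 163 and 173 CPM in sgZHX3-3 libraries 1 to 3, against 147, 123 and 123 CPM in Empty libraries 1 to 3. The groups did not overlap, and Empty library 1 lay closest to the libraries labelled sgZHX3-3. The log2 fold change was 0.32 (SE 0.0740, edgeR adjusted p = 0.0164; 95% interval 0.155 to 0.475), which is 24.4% higher. CELF4 (ENSG00000101489.19) covers 323 kb of chromosome 18 (GRCh38, 37243047 to 37566037, minus strand). Its exons share at most 3.93% of their length with any of the antisense genes annotated there, and whether the counting used strand is not stated.

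The call on CELF4 did not hold in every setting. It was lost without Empty library 2 (log2 fold change 0.27, adjusted p = 0.0875), Empty library 3 (0.27, 0.0948), sgZHX3-3 library 2 (0.32, 0.0704) or sgZHX3-3 library 3 (0.27, 0.0662), and with Empty libraries 2 and 3 both left out (0.15, 0.459). Once a trend of each library with gene span had been removed, CELF4 was at 0.17 (adjusted p = 0.193). Of 657 tested genes over 300 kb, 32.3% were higher and 0.457% lower. The summed stress gene level was lower in every library labelled sgZHX3-3 than in any labelled Empty, and its part in this result was not tested.

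CELF3 did not pass with all libraries. It had 265, 280 and 314 CPM in sgZHX3-3 libraries 1 to 3, against 281, 245 and 251 CPM in Empty libraries 1 to 3, so Empty library 1 lay within the range of the libraries labelled sgZHX3-3. The log2 fold change was 0.14 (edgeR adjusted p = 0.198; 95% interval −0.00681 to 0.295). It passed without Empty library 1 (0.21, adjusted p = 0.0404). CELF3 (ENSG00000159409.14) is short, at 14.4 kb (chromosome 1, 151702404 to 151716814, minus strand). Among the other CELF genes, the widespread CELF1 had 219 ± 10.7 CPM in the libraries labelled sgZHX3-3 and 212 ± 14.0 CPM in those labelled Empty (SD, n = 3 each), at 0.04 (adjusted p = 0.698). CELF2 (−0.03), CELF5 (0.13) and CELF6 (0.10) did not pass either. CELF6 shares 88.74% of its exon length with another protein-coding gene on its strand, so its counts are uncertain.

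ELAVL4 and ELAVL3, the RNA-stabilising Hu proteins of neurons, did not pass, and they differed in level. ELAVL4 had 13.3, 15.2 and 13.3 CPM in sgZHX3-3 libraries 1 to 3, against 15.8, 16.9 and 16.1 CPM in Empty libraries 1 to 3. The groups did not overlap, and the log2 fold change was −0.23 (SE 0.0808, edgeR adjusted p = 0.0892; 95% interval −0.399 to −0.0501, for this gene alone). With the span trend removed ELAVL4 passed, at −0.27 (adjusted p = 0.0404). ELAVL3 had 145, 149 and 144 CPM in the libraries labelled sgZHX3-3, against 130, 152 and 158 CPM in those labelled Empty, with full overlap (−0.0081, adjusted p = 0.955; 95% interval −0.154 to 0.137). ELAVL4 (ENSG00000162374.16) lies on chromosome 1 (50048014 to 50203786, plus strand) and ELAVL3 (ENSG00000196361.9) on chromosome 19 (11451326 to 11481046, minus strand), where it shares 5.38% of its exon length with another gene of its strand.

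The other Hu genes were a widespread and a neuronal relative. ELAVL1, present in most tissues, had 120 ± 1.52 CPM in the libraries labelled sgZHX3-3 and 122 ± 2.46 CPM in those labelled Empty (SD, n = 3 each), at −0.02 (edgeR adjusted p = 0.803). ELAVL2 had 12.1, 11.2 and 11.2 CPM in the libraries labelled sgZHX3-3, against 12.2, 15.6 and 14.6 CPM in those labelled Empty. Its log2 fold change was −0.30 (edgeR adjusted p = 0.0607), and it passed with DESeq2 (adjusted p = 0.0390), without the expression filter (0.0453), with library totals alone (0.0419), with the span trend removed (0.0341) and without Empty library 1 (0.00567). With Empty libraries 2 and 3 both left out ELAVL2 was at −0.0844 (0.799).

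PTBP2, which holds back neuronal exons in developing neurons and replaces the widespread PTBP1 there, did not pass. It had 33.9, 31.1 and 29.6 CPM in sgZHX3-3 libraries 1 to 3, against 35.4, 36.5 and 34.6 CPM in Empty libraries 1 to 3. All values of the libraries labelled sgZHX3-3 were below those labelled Empty, at −0.17 on the log2 scale (SE 0.0675, edgeR adjusted p = 0.113; 95% interval −0.320 to −0.028). PTBP1, which represses PTBP2 by having an exon skipped, had 302, 311 and 309 CPM in the libraries labelled sgZHX3-3, against 280, 276 and 286 CPM in those labelled Empty. PTBP1 was at 0.13 (adjusted p = 0.0947), also without overlap and without passing. PTBP3 was at 0.03 (adjusted p = 0.750). PTBP2 (ENSG00000117569.18) lies on chromosome 1 (96721665 to 96823738, plus strand).

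RBFOX2, which acts in muscle, neurons and other tissues, had 189, 187 and 182 CPM in the libraries labelled sgZHX3-3, against 160, 172 and 175 CPM in those labelled Empty. The groups did not overlap, at 0.14 on the log2 scale (SE 0.0524, edgeR adjusted p = 0.107; 95% interval 0.0243 to 0.251). RBFOX2 (ENSG00000100320.22) covers 290 kb of chromosome 22 (35738736 to 36028425, minus strand), and its value was 0.00807 with the span trend removed. Its neuronal relatives were far lower. RBFOX3, the neuronal nuclear antigen NeuN, averaged 3.92 ± 0.680 CPM in the libraries labelled sgZHX3-3 and 2.79 ± 0.551 CPM in those labelled Empty (SD, n = 3 each), at 0.49 (adjusted p = 0.0815). RBFOX1, a very long gene, was at 0.600 ± 0.140 and 0.363 ± 0.0617 CPM in the libraries labelled sgZHX3-3 and Empty (SD, n = 3 each; adjusted p = 0.131).

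NOVA1 and NOVA2, KH-domain proteins that set synaptic exons, did not pass. NOVA1 had 22.1, 21.8 and 19.9 CPM in the libraries labelled sgZHX3-3, against 20.6, 21.4 and 20.6 CPM in those labelled Empty, so the groups overlapped. Its log2 fold change was 0.03 (edgeR adjusted p = 0.837; 95% interval −0.124 to 0.180). NOVA2 had 3.42, 3.61 and 4.17 CPM in the libraries labelled sgZHX3-3, against 3.27, 3.50 and 3.73 CPM in those labelled Empty, at 0.10 (adjusted p = 0.672; 95% interval −0.184 to 0.379). NOVA1 (ENSG00000139910.19) lies on chromosome 14 from 26443093 to 26597754 and NOVA2 (ENSG00000104967.6) on chromosome 19 from 45933734 to 45973546, both on the minus strand.

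SRRM4, which brings microexons into neuronal RNAs, had 7, 20 and 17 counts in sgZHX3-3 libraries 1 to 3, against 10, 11 and 12 counts in Empty libraries 1 to 3. The groups overlapped, and the 95% interval of its log2 fold change, −0.475 to 1.29, spans 0 widely (0.41, edgeR adjusted p = 0.559), so no difference was detectable at this depth. SRRM3, its relative with a shared microexon function, had 26.2, 26.9 and 29.5 CPM in the libraries labelled sgZHX3-3, against 25.1, 24.2 and 25.7 CPM in those labelled Empty (log2 fold change 0.14, adjusted p = 0.200). Per length, SRRM3 lay at 3.52 to 4.29 CPM per kb, above every library's value of SRRM4. REST, the repressor that holds SRRM4 down outside neurons and is itself spliced by SRRM4, had 9.31, 9.26 and 9.36 CPM in the libraries labelled sgZHX3-3, against 7.67, 9.35 and 7.66 CPM in those labelled Empty (0.17, adjusted p = 0.279). SRRM4 (ENSG00000139767.9) lies on chromosome 12 (118981495 to 119163051, plus strand).

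**Figure D2:**
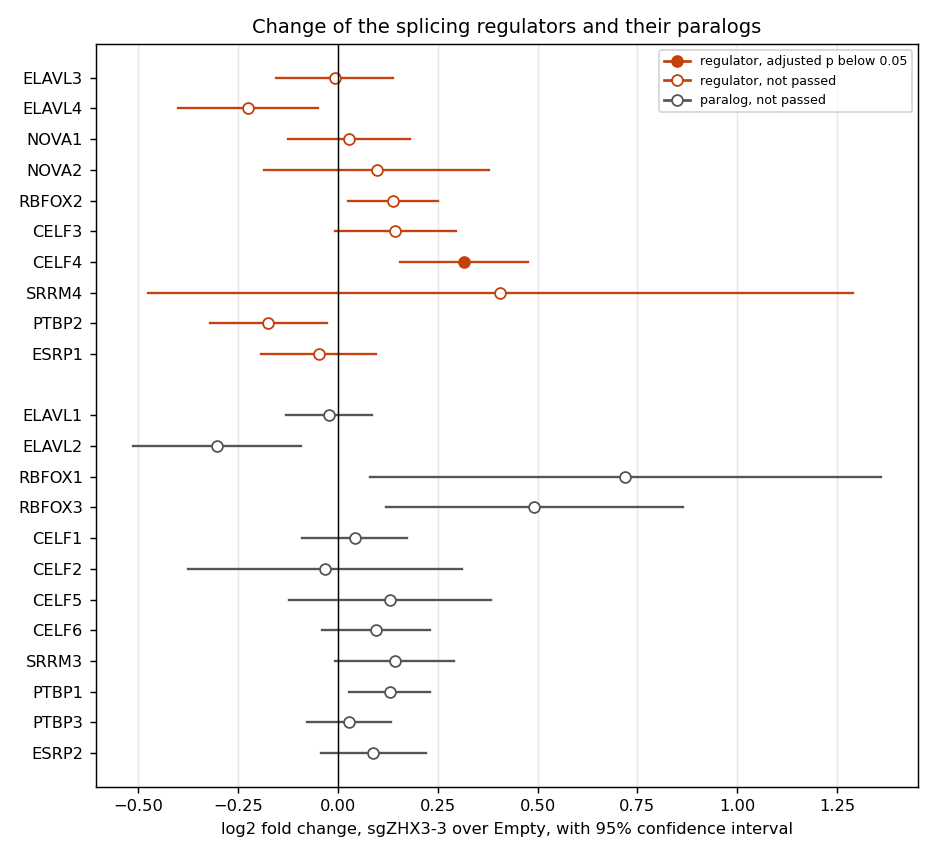
Log2 fold change of the libraries labelled sgZHX3-3 over those labelled Empty for the 10 regulators (above) and their 12 paralogs (below), with 95% confidence intervals for each gene alone; filled points had an adjusted p below 0.05. CELF4 at 0.32 is the filled point, and SRRM4 has the interval from −0.475 to 1.29.

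The 12 paralogs of these regulators gave no call in the main edgeR fit. Of the 12, all tested, 0 were higher and 0 lower in that fit, while 3 were higher and 1 lower at an unadjusted p below 0.05. DESeq2 called 0 higher and 1 lower (ELAVL2). So did edgeR on all libraries with library totals alone, with the span trend removed or without the expression filter. Their median log2 fold change was 0.09.

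**Figure D3:**
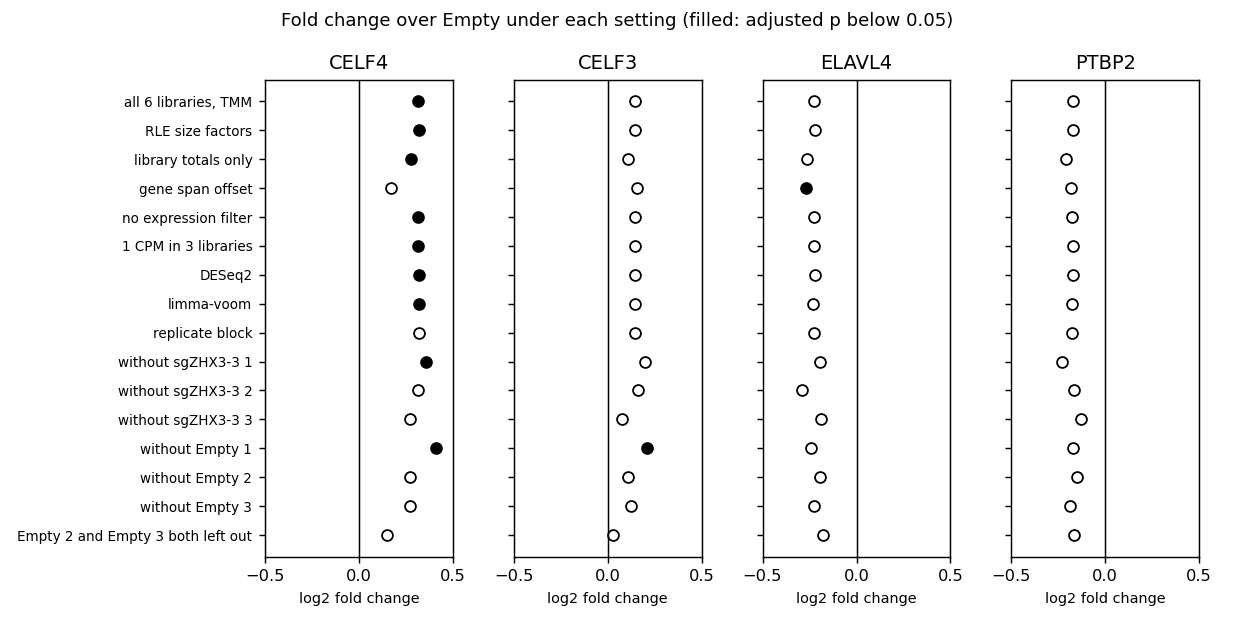
Log2 fold change over Empty of CELF4, CELF3, ELAVL4 and PTBP2 with all libraries and under each alternative setting, a filled point for an adjusted p below 0.05. CELF4 ranges from 0.149 to 0.409 over the alternatives, and ELAVL4 from −0.292 to −0.179.

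Ratios between relatives were taken within each library, so that a scaling factor common to all genes of a library drops out, while a trend with gene span does not. The PTBP2 to PTBP1 ratio per length was 0.0597, 0.0532 and 0.0511 in sgZHX3-3 libraries 1 to 3, against 0.0674, 0.0705 and 0.0643 in Empty libraries 1 to 3. PTBP1 thus made up most of the pair in every library, and the libraries labelled sgZHX3-3 all had the lower ratio. The mean log2 ratio differed by −0.304 (exact two-sided permutation p = 0.1, adjusted p = 0.2 over 6 ratios), where 0.1 is the smallest p that 3 libraries against 3 allow, so no ratio could pass.

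The CELF4 to CELF3 ratio was also apart in all libraries. It was 0.392, 0.395 and 0.375 in the libraries labelled sgZHX3-3, against 0.356, 0.341 and 0.333 in those labelled Empty, a log2 difference of 0.17 (exact permutation p = 0.1). With the span trend removed the fitted log2 fold changes of CELF4 (323 kb) and CELF3 (14.4 kb) were nearly level, at 0.17 and 0.16. In this ratio Empty library 1 was nearest to the libraries labelled sgZHX3-3. The ELAVL4 to ELAVL3 ratio was 0.0628, 0.0698 and 0.0631 in the libraries labelled sgZHX3-3, against 0.0827, 0.0760 and 0.0699 in those labelled Empty, with a difference of −0.223 and the closest libraries nearly touching at 0.0698 and 0.0699 (exact permutation p = 0.1). The ratios of NOVA1 to NOVA2 (difference −0.06, exact permutation p = 0.8), SRRM4 to SRRM3 (0.15, p = 0.7) and ESRP1 to ESRP2 (−0.14, p = 0.2) overlapped between the groups.

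**Figure D4:**
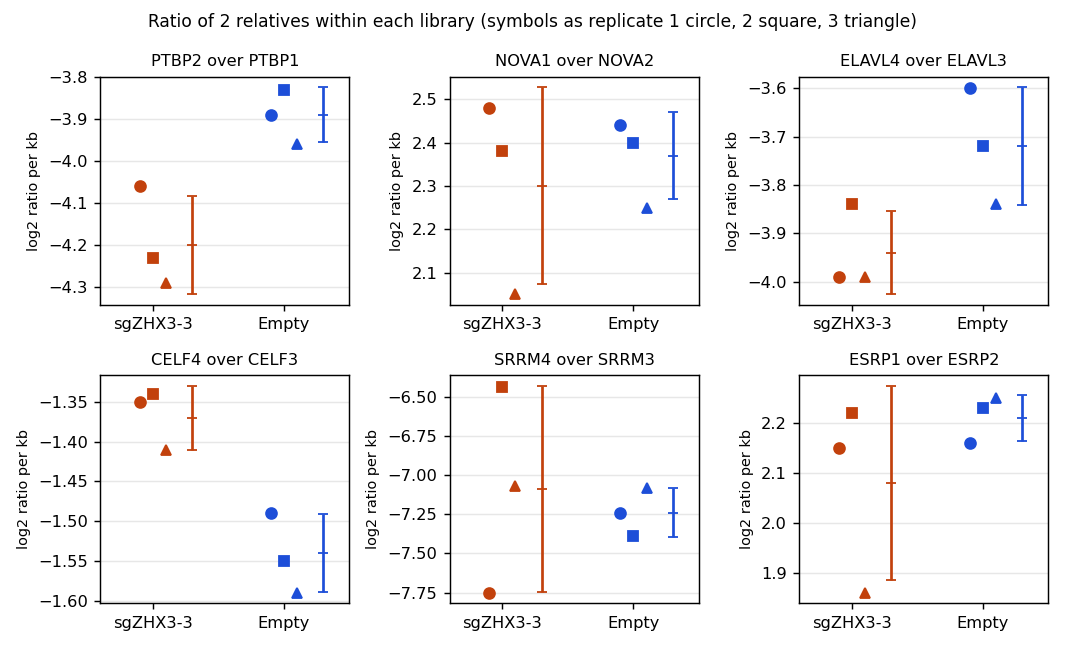
Log2 ratio per kb of relatives in each library, sgZHX3-3 left and Empty right in each panel, with the mean and SD of 3 libraries as a bar; each panel has its own scale. The groups do not overlap for PTBP2 over PTBP1, ELAVL4 over ELAVL3 and CELF4 over CELF3, and overlap for the other panels.

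ESRP1, the regulator that keeps epithelial exons in transcripts such as FGFR2 and CD44, had 190, 184 and 159 CPM in sgZHX3-3 libraries 1 to 3, against 175, 189 and 187 CPM in Empty libraries 1 to 3. The groups overlapped, sgZHX3-3 library 3 being the lowest, and the log2 fold change was −0.05 (edgeR adjusted p = 0.688; 95% interval −0.192 to 0.0961). ESRP2 had 48.0 ± 2.71 CPM in the libraries labelled sgZHX3-3 and 45.1 ± 0.807 CPM in those labelled Empty (SD, n = 3 each; 0.09, adjusted p = 0.367). ESRP1 (ENSG00000104413.16) lies on chromosome 8 (94641074 to 94707466, plus strand). Of 13 tested epithelial genes, 0 were higher and 0 lower with edgeR and with DESeq2, 0 higher and 4 lower at an unadjusted p below 0.05, with a median of −0.01. E-cadherin, CDH1, had 248, 256 and 261 CPM in the libraries labelled sgZHX3-3, against 278, 282 and 284 CPM in those labelled Empty (−0.14, adjusted p = 0.0742).

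Mesenchymal genes differed widely in level, with N-cadherin, CDH2, at 219 and 197 CPM on average in the libraries labelled sgZHX3-3 and Empty. Vimentin, VIM, was at most 0.180 CPM in any library and did not reach the expression filter. ZEB1, a repressor of epithelial genes, had 4.92, 5.09 and 4.03 CPM in the libraries labelled sgZHX3-3, against 4.45, 5.59 and 5.30 CPM in those labelled Empty (−0.13, edgeR adjusted p = 0.545). Of 8 tested mesenchymal genes and repressors, 0 were higher and 1 was lower with edgeR, with a median of 0.08, and 0 were lower with DESeq2, limma-voom, no expression filter or the replicate block. The lower gene was SNAI1, at 0.380, 0.180 and 0.0996 CPM in the libraries labelled sgZHX3-3, against 0.385, 0.896 and 1.69 CPM in those labelled Empty (−2.23, adjusted p = 0.0308). Its values at Empty library 1 and sgZHX3-3 library 1 were nearly level, and with Empty libraries 2 and 3 both left out SNAI1 was at −0.863 (0.613). It also lost its call without Empty library 2 (0.0728), Empty library 3 (0.0948), sgZHX3-3 library 2 (0.128) or sgZHX3-3 library 3 (0.124).

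Among general splicing factors the SR proteins, which bind exons and favour their inclusion, were the group with several calls. Of 14 tested, 0 were higher and 5 lower, against 4.98% lower of all tested genes; all 14 had a negative log2 fold change, with a median of −0.16. SRSF2 fell to 182, 183 and 184 CPM in sgZHX3-3 libraries 1 to 3, against 216, 220 and 221 CPM in Empty libraries 1 to 3 (−0.26, edgeR adjusted p = 0.00433), and it kept its call without any 1 library. TRA2A fell by 0.367 on the log2 scale (adjusted p = 0.00581), SRSF6 by 0.231 (0.00931), SRSF7 by 0.259 (0.0150) and TRA2B by 0.195 (0.0478). TRA2A also kept its call without any 1 library, while SRSF6, SRSF7 and TRA2B lost theirs without Empty library 2 (0.0575, 0.0610 and 0.152), Empty library 3 (0.0504, 0.103 and 0.211) or sgZHX3-3 library 2 (0.0625, 0.0786 and 0.129), and TRA2B also without sgZHX3-3 library 1 (0.0507) or 3 (0.124). The count of lower SR genes was 2 without Empty library 2, Empty library 3 or sgZHX3-3 library 2, 8 without Empty library 1, 4 with the span trend removed and 0 with Empty libraries 2 and 3 both left out, when the median was −0.10. The replicate block gave 2 lower SR genes, and library totals alone gave 7. The summed stress gene level was higher in all libraries labelled Empty, and its part in the SR result was not tested.

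Other splicing factor groups had at most 1 edgeR call each, where 7.11% of all tested genes were higher and 4.98% lower. Counts this small are not read as different from that background. Of 22 tested hnRNP proteins, the abundant partners of nascent RNA, 0 were higher and 0 lower with edgeR and with DESeq2, with 0 higher and 1 lower at an unadjusted p below 0.05 and a median of −0.00966. Of 33 tested genes of the core spliceosome, 0 were higher and 1 was lower, the small nuclear ribonucleoprotein factor PRPF3 (−0.22, edgeR adjusted p = 0.0467), with a median of −0.05. PRPF3 kept its call without Empty library 1 (0.00421) and lost it without any other 1 library (0.0761 to 0.206). Of 15 tested other tissue-regulated splicing factors, 1 was higher and 0 lower, with a median of −0.02. It was MSI2, an RNA-binding protein of progenitor cells, with 45.2, 45.5 and 48.5 CPM in the libraries labelled sgZHX3-3, against 36.8, 35.8 and 35.6 CPM in those labelled Empty (0.36, adjusted p = 0.00198). MSI2 spans 429 kb and was at 0.171 (0.0874) with the span trend removed, and it lost its call with Empty libraries 2 and 3 both left out (0.113). RBM24, at 0.134 to 0.199 CPM in the libraries labelled sgZHX3-3 and 0.257 to 0.448 CPM in those labelled Empty, is the point below −1 in the plot of splicing factor groups and did not pass (−1.12, 0.0737). HNRNPH2, SNRPN, KHDRBS2 and RBM20 did not reach the filter.

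**Figure D5:**
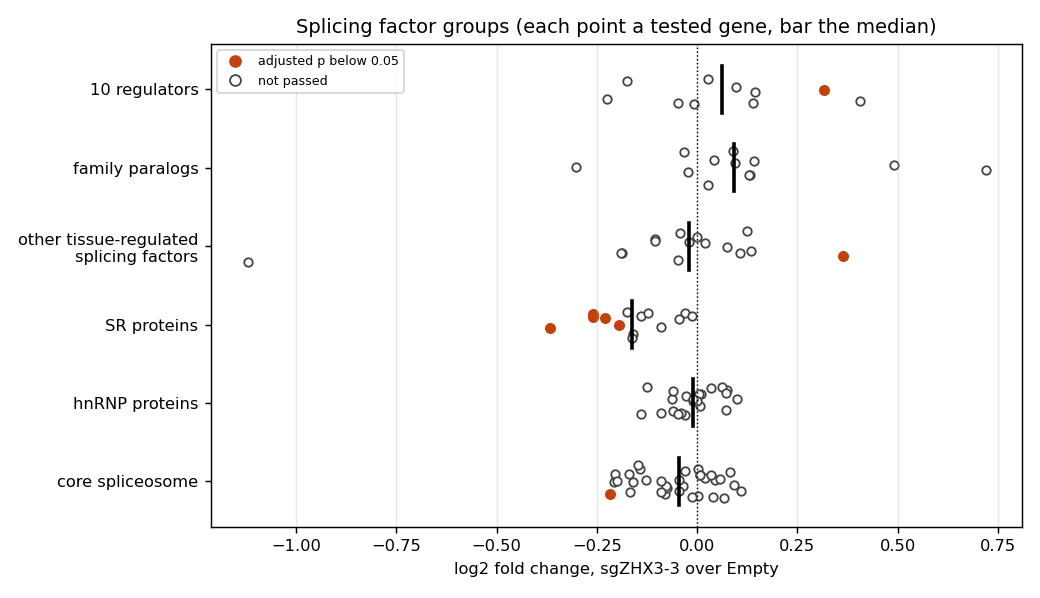
Log2 fold change of the libraries labelled sgZHX3-3 over those labelled Empty for each tested gene of 6 splicing factor groups, with the median as a bar and filled points for an adjusted p below 0.05. All 14 SR protein genes lie below 0, at a median of −0.16.

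Total RNA of transcripts with well-known exons set by these regulators was also counted. Of 12 tested, 3 were higher and 0 lower, against 7.11% higher and 4.98% lower of all tested genes. Their median log2 fold change was 0.16, against −0.002 over all tested genes. DAB1, a reelin signalling adaptor with NOVA-regulated exons, rose to 6.66 ± 0.679 CPM in the libraries labelled sgZHX3-3, against 3.87 ± 0.417 CPM in those labelled Empty (SD, n = 3 each; log2 fold change 0.78, edgeR adjusted p = 0.00173). Agrin, AGRN, was at 0.51 (adjusted p = 0.0223) and gephyrin, GPHN, at 0.25 (0.0292). DAB1 and GPHN are very long, and with the span trend removed they were at 0.33 (0.0835) and −0.0304 (0.780). With Empty libraries 2 and 3 both left out none of the 3 passed. AGRN lost its call without Empty library 2 (0.0911), Empty library 3 (0.0748), sgZHX3-3 library 2 (0.0603) or sgZHX3-3 library 3 (0.0633). GPHN lost its call without Empty library 2 (0.0833), Empty library 3 (0.137), sgZHX3-3 library 1 (0.0829) or sgZHX3-3 library 2 (0.135). FGFR2 (0.45, adjusted p = 0.231), CD44 (0.08, 0.483), and DLG4 (0.14, 0.118), whose RNA PTBP proteins are known to lower, did not pass.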

How the data were processed

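RNA of 6 libraries was analysed. The authors deposited a table of raw read counts for each gene symbol, made with STAR and featureCounts on hg38, per the submitters' processing notes; their versions, the annotation and the treatment of strand and multi-mapped reads are not stated there. Libraries were stranded, per the labels' protocols. Each column was matched to a title by its group and letter, with Ctrl read as Empty (genotype WT).

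Genes kept by filterByExpr (minimum count 10, minimum total 15) were scaled by TMM and tested with edgeR 4.0.16 (robust quasi-likelihood, group as the only term, Benjamini-Hochberg adjustment, threshold 0.05) in R 4.3.3. Standard errors were derived by dividing the log2 fold change by the root of F. The common biological coefficient of variation was 6.91%. Of the 26485 symbols 90.3% matched GENCODE 29, which gave coordinates and exon lengths. Ratios used exact permutation tests (scipy 1.17.1, Python 3.11.15). The procedure was tested on simulated data. Alternatives were RLE factors, library totals, a gene span offset (spline with 4 degrees of freedom), no filter, 1 CPM in 3 libraries, DESeq2 1.42.0, limma-voom (limma 3.58.1), a replicate block, each library left out, and Empty libraries 2 and 3 both left out.

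The regulators and all gene lists were chosen with earlier results of these data known. By the naming rule the text names the regulators, their paralogs, ZHX3, REST and called list genes with the smallest adjusted p. Other list genes named with their values, such as FGFR2, CD44 and DLG4, and the stress gene list lie outside the rule and were chosen after values were seen.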

Additional observations from a re-analysis of the deposited data

How the results depend on the processing

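The count of regulators called higher was 1 with all libraries and lay between 0 and 2 with 1 library left out. It was 0 with the gene span offset, where 1 was lower, 0 with the replicate block and 0 with Empty libraries 2 and 3 both left out, when the lone Empty library is assumed to vary like the others. Over all genes the higher and lower counts were 1151 and 807. They lay between 474 and 1792 and between 184 and 1499 with 1 library left out, and were 209 and 40 with Empty libraries 2 and 3 both left out. With library totals alone 1272 genes were lower.

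With the replicate block 516 genes were higher and 239 lower, and CELF4 had an adjusted p of 0.0705. Deviations of same-numbered libraries correlated at −0.24, 0.126 and −0.23, and no library correlated best with its own number. The numbers were therefore not taken as pairs.

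Of 149 values of single regulators under the alternatives, 10 changed sign, all of ELAVL3, NOVA1 or ESRP1, none of which passed in any setting. NOVA1 was at −0.00864 with library totals and −0.0185 with the span offset, ELAVL3 at 0.0159 with the span offset and 0.164 with Empty libraries 2 and 3 both left out, and ESRP1 at 0.0253 in that last setting. With 1 library left out ELAVL3 lay between −0.0835 and 0.0505, NOVA1 between −0.000815 and 0.0734, and ESRP1 between −0.0982 and 0.0244. The cause was not tested. SRRM4 has no value under the filter of 1 CPM. Of 36 family ratio differences with 1 library left out, 2 changed sign: NOVA1 over NOVA2 lay between −0.151 and 0.0657, positive without sgZHX3-3 library 3, and SRRM4 over SRRM3 between −0.175 and 0.484, negative without sgZHX3-3 library 2. The longest transcript as length cancels from these differences, and no ratio was computed under the span offset. Depth limited SRRM4, with at most 20 counts a library.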

Other observations

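Neuronal genes that are mostly not splicing regulators were also counted in these cells. Of 13 tested genes 3 rose and 0 fell, against 7.11% higher and 4.98% lower of all tested genes, with a median log2 fold change of 0.13. The count of higher genes was 2 with the span trend removed, when MAP2 (310 kb) was at 0.09 (edgeR adjusted p = 0.213), and 2 with the replicate block, when MAP2 had an adjusted p of 0.0539. Doublecortin, DCX, a microtubule protein of migrating neurons, had 76.2, 78.2 and 72.5 CPM in the libraries labelled sgZHX3-3, against 46.3, 50.9 and 45.6 CPM in those labelled Empty. Its log2 fold change was 0.67 (SE 0.0612, edgeR adjusted p = 5.32e-05). DCX kept its call whichever 1 library was dropped, and with both Empty libraries 2 and 3 dropped (0.71, 0.00654). The neurofilament NEFL (0.79, 0.00801) and the microtubule protein MAP2 (0.23, 0.0114) also rose. MAP2 lost its call without Empty library 3 (0.0620) or sgZHX3-3 library 2 (0.0743), NEFL without Empty library 3 (0.0507), so the count of higher genes was 1 without Empty library 3, against 5 without Empty library 1. Both also lost it with Empty libraries 2 and 3 left out (0.087 for MAP2 and 0.296 for NEFL).

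Genes that neurons share with secretory cells were abundant, with SYP averaging 844 and 773 CPM, SNAP25 234 and 247 CPM and STMN2 164 and 156 CPM in the libraries labelled sgZHX3-3 and Empty, and none of these passed. Markers of kinds of neuron were low: SLC17A7 was at most 0.770 CPM and GAD1 at most 0.896 CPM in any library, and NEUROD6 had no count. Of 7 tested markers of other pancreas and blood cells, 1 was higher, the acinar gene CPA1 (0.31, edgeR adjusted p = 0.0145), and 1 lower, the alpha cell gene IRX2 (−0.34, 0.00728), with a median of −0.01. With Empty libraries 2 and 3 both left out neither CPA1 (0.17, 0.413) nor IRX2 (−0.35, 0.134) passed. CPA1 also lost its call without Empty library 2 (0.0833), Empty library 3 (0.0855) or sgZHX3-3 library 2 (0.0637). The acinar genes PRSS1 and CELA3A, the endothelial gene PECAM1 and the leukocyte gene PTPRC were at most 0.0855 CPM.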
